A study of Mus musculus with 8 samples.

Results

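The genes described here are 9 transcription factors of the naive pluripotency network of mouse embryonic stem cells (ESCs), namely Klf2, Klf4, Klf5, Esrrb, Tfcp2l1, Tbx3, Nr0b1, Prdm14 and Gbx2. They were chosen by name, as every probe set whose platform gene symbol was one of these 9, which gave 20 probe sets of 45037 and 9 genes of 18193 measured. Each gene was read from the brightest of its probe sets, by the mean of the 8 arrays, and the remaining probe sets were used to ask whether they read alike.

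The factors sit below a few signals. In the naive state, LIF acts through the kinase Jak1 and Stat3 to maintain Klf4, Tfcp2l1, Gbx2 and Nr0b1, while Wnt signals block Gsk3 and relieve the repressor Tcf7l1 from Esrrb and its other targets. The FGF/ERK pathway works in the other direction and drives cells towards the epiblast of the implanted embryo, where most of these factors are switched off. Oct4 (Pou5f1), Sox2 and Nanog form the core with which they act. Zfp281 is a zinc finger protein that binds promoters of pluripotency genes in ESCs, and the comparison asks how the naive factors stand when it is absent.

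Expression was measured in 8 ESC lines on mouse Affymetrix arrays, with 1 array for each line. Lines 3, 3.2 and 3.3 were wild-type (+/+), 5 and 3.1 heterozygous (+/−), and 7, 3.34 and 3.38 null (−/−) for Zfp281, and all were derived from blastocysts of heterozygous matings. The mutant allele, made in CJ7 ESCs, lacks the Zfp281 exons and so all of its coding sequence. The floxed neomycin cassette put in their place was kept in one form of the allele and removed in another, and the labels do not say which form a line has. Null line 7 and wild-type line 3 came from the same litter, as did null line 3.38 and wild-type line 3.3. All lines were grown on primary mouse embryonic fibroblasts in serum medium with LIF and received no further treatment, so every group holds active LIF signalling and may carry feeder RNA. Values are log2 expression from robust multi-array averaging (RMA), and a difference of 1 on this scale is a 2-fold difference. The spread between lines of a genotype contains both clonal differences and technical error. In a culture, fewer cells that express a gene and less RNA per cell cannot be told apart.

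Zfp281 itself ranged from 6.72 to 7.93 in wild-type cells, from 6.69 to 6.97 in heterozygous cells and from 3.64 to 5.23 in null cells (null minus wild-type −2.54, SE 0.45, limma adjusted p = 0.0467), and 2 null lines kept a present call. Between 28.4% and 35.3% of probe sets were called present on an array. Of 10 ESC markers 9 were present in every line, and of 19 feeder fibroblast markers between 13 and 19. The mean level of the feeder list was 6.41 to 7.10 in wild-type, 6.81 and 7.16 in heterozygous and 6.35 to 6.44 in null lines. The signal of Gapdh and beta-actin control probes at the 3′ end minus that at the 5′ end, a sign of RNA or cDNA length, was 4.23 to 4.86 in wild-type, 4.49 and 4.80 in heterozygous and 2.68 to 3.71 in null lines (exact permutation p = 0.1, two-sided, the smallest that 3 against 3 lines can give). The Y-linked gene Eif2s3y had a present call in lines 3 and 3.2 (wild-type) and 3.1 (heterozygous) only, and the sex of the lines is not given in the labels. It was thus called present in no null line. The part of sex, of control-probe quality and of feeder RNA in the values below was not tested except where a fit with such a measure is given. Null and wild-type lines did not overlap in the control-probe difference, so a fit with that measure cannot tell it apart from genotype.

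Most of the naive factors averaged higher in null lines, and 1 of them passed the test. For 8 of the 9 genes the null mean exceeded the wild-type mean (46.8% of all genes), with a median difference of 0.72 (all genes, −0.01). Calls of 3 kinds were counted, each beside its share among all genes. Only Nr0b1 rose at an adjusted p under 0.05 (0.693% of all genes rose). Nr0b1, Klf4 and Gbx2 were more than 2-fold higher (1.37% of all genes). In 7 of the 9, all but Klf2 and Esrrb, every null line lay above every wild-type line (11.1% of all genes). The same was true of 1302 of the 7306 genes called present throughout at least 1 genotype, which include all 9.

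**Figure D1:**
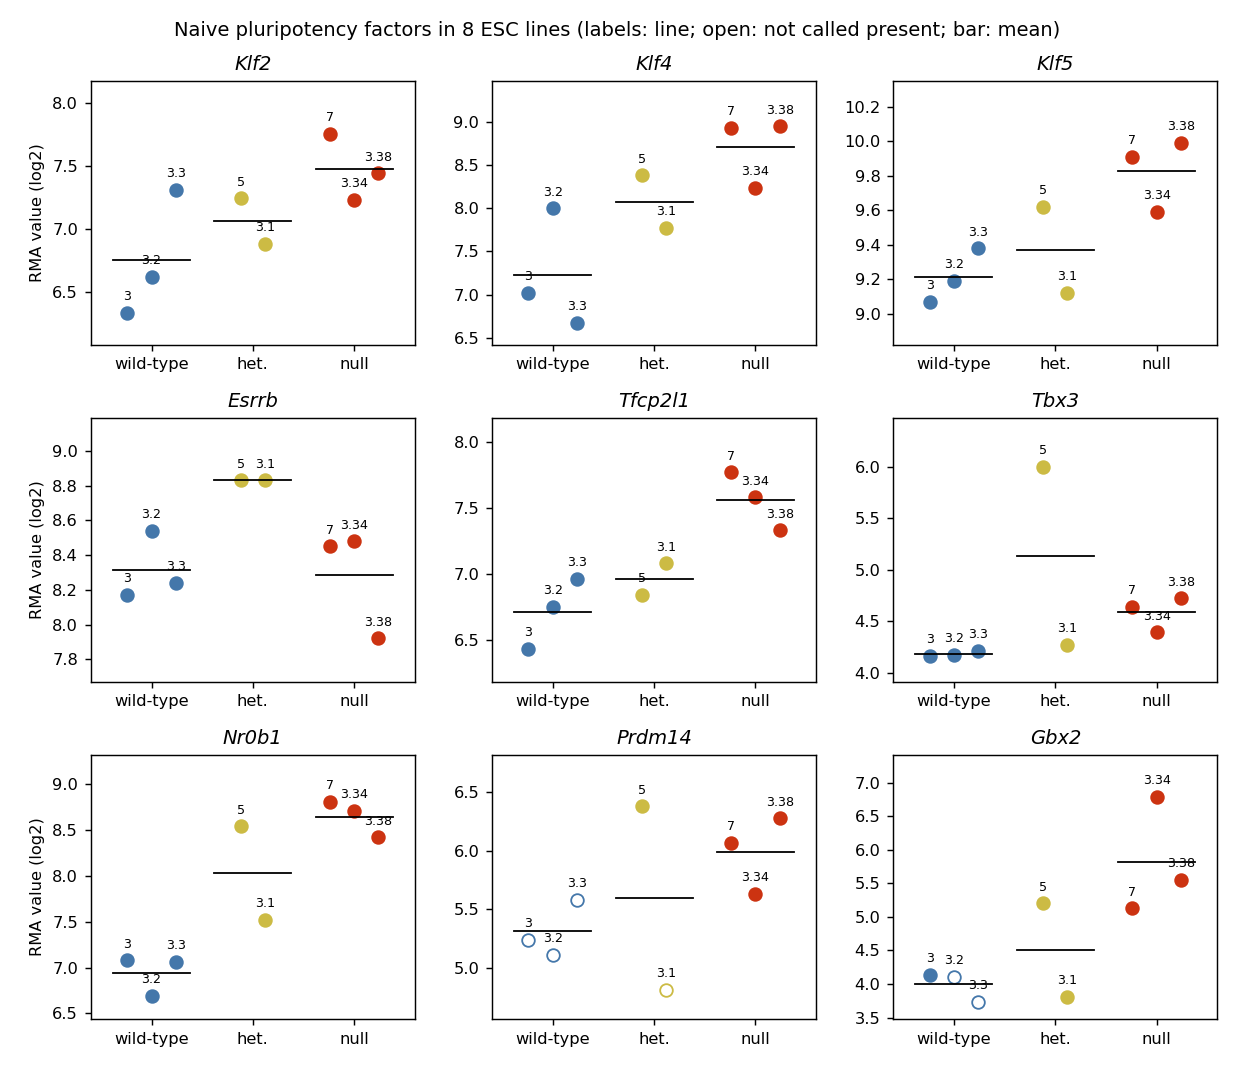
RMA log2 value (y axis) of each of the 9 genes in 3 wild-type, 2 heterozygous and 3 null ESC lines (x axis), each y axis covering only its own gene. Points are single lines with their names, open points were not called present and bars are means. For Nr0b1 the wild-type lines sit between 6.69 and 7.08 and the null lines between 8.42 and 8.81, while for Esrrb the groups overlap.

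Among targets of the LIF/Stat3 branch, Nr0b1 (Dax1) changed most clearly. It encodes an X-linked orphan nuclear receptor that lacks the usual DNA-binding domain, partners Oct4 and restrains its activity. Nr0b1 was at 7.08 (line 3), 6.69 (line 3.2) and 7.06 (line 3.3) among the wild-type, at 8.54 (line 5) and 7.52 (line 3.1) among the heterozygous, and at 8.81 (line 7), 8.71 (line 3.34) and 8.42 (line 3.38) among the null. The null lines lay close together, well above the wild-type lines, and heterozygous line 5 fell among them. The difference between null and wild-type was 1.70 (SE 0.25, 95% interval 1.13 to 2.28, limma adjusted p = 0.037), a 3.26-fold rise seen in 3 of 3 null lines.

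Because Nr0b1 is on the X chromosome and the lines differ in X-linked expression, that measure was set beside it. The median deviation of 205 X-linked genes was −0.20 (line 3), −0.11 (line 3.2) and 0.34 (line 3.3) among the wild-type, 0.35 (line 5) and −0.21 (line 3.1) among the heterozygous, and 0.01 (line 7), −0.37 (line 3.34) and 0.20 (line 3.38) among the null. Nr0b1 was thus at 8.71 in the null line with the lowest X-linked median, and at 7.06 in wild-type line 3.3, whose X-linked median was near the highest. Between the heterozygous lines both measures were higher in line 5 than in line 3.1. With the X-linked median as a covariate the difference was 1.74 (limma adjusted p = 0.03). With Eif2s3y as a covariate it was 1.41 (adjusted p = 0.164), and with the control-probe difference 1.20 (adjusted p = 1.0). Within the paired litters, with the litter as a block, it was 1.55 (adjusted p = 0.0413). Without any single line it stayed between 1.58 and 1.82, but the call was lost without wild-type line 3, wild-type line 3.2, null line 7 or null line 3.34 (adjusted p = 0.1, 0.1, 0.143 and 0.0559).

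Klf4, the zinc finger factor of the classical reprogramming set and a direct Stat3 target, was at 7.02 (line 3), 8.00 (line 3.2) and 6.67 (line 3.3) among the wild-type, at 8.38 (line 5) and 7.77 (line 3.1) among the heterozygous, and at 8.93 (line 7), 8.24 (line 3.34) and 8.95 (line 3.38) among the null. Every null line exceeded every wild-type line, though wild-type line 3.2 came near the lowest of them. The difference of 1.48 (SE 0.35, 95% interval 0.67 to 2.28) was 2.78-fold and did not pass over all genes (limma adjusted p = 0.0834). Within the 4 lines of the paired litters, with the litter as a block, it was 2.10 (adjusted p = 0.0363). Those 4 lines leave out wild-type line 3.2, the highest of its group, and null line 3.34, the lowest of its group. With only line 3.2 left out the difference was 1.86 (adjusted p = 0.0797), and with only line 3.34 left out 1.71 (adjusted p = 0.0817).

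Gbx2 is a homeobox gene of the same branch, known in the embryo for its place at the boundary of midbrain and hindbrain. It was at 4.14 (line 3), 4.11 (line 3.2) and 3.73 (line 3.3) among the wild-type, at 5.20 (line 5) and 3.81 (line 3.1) among the heterozygous, and at 5.13 (line 7), 6.79 (line 3.34) and 5.55 (line 3.38) among the null. Only line 3 of the wild-type lines had a present call, whereas all heterozygous and null lines had one. Null lines lay above all wild-type lines and differed from each other by up to 1.65, the widest spread of the 9 genes within the null group. The mean difference was the largest of the 9 at 1.83 (SE 0.46, 95% interval 0.78 to 2.88, 3.55-fold) and did not pass (limma adjusted p = 0.0929). The wild-type mean behind that fold rests mostly on values not called present.

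Tfcp2l1, a CP2-family factor downstream of Stat3, was at 6.43 (line 3), 6.75 (line 3.2) and 6.96 (line 3.3) among the wild-type, at 6.84 (line 5) and 7.08 (line 3.1) among the heterozygous, and at 7.77 (line 7), 7.58 (line 3.34) and 7.33 (line 3.38) among the null. Both heterozygous lines were below all null lines, which was true of Tfcp2l1 alone among the 9. Null exceeded wild-type by 0.84 (SE 0.17, 95% interval 0.45 to 1.23, limma adjusted p = 0.0609). When the test was kept to the 7306 genes called present throughout at least 1 genotype, the adjusted p fell to 0.0404, and Klf4 and Gbx2 passed as well (0.0459 and 0.0478).

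For the 3 genes past 2-fold, the 250 bases before the RefSeq transcription start are shown, since Zfp281 is a zinc finger protein that binds G-rich sequence. Capitals mark the GC box GGGCGG on either strand (CCGCCC read on the other). Coordinates are on GRCm38.p6, and sequences read 5′ to 3′ on the strand of the gene, ending at the base before the start.
Nr0b1, chrX:86191525-86191774, plus strand: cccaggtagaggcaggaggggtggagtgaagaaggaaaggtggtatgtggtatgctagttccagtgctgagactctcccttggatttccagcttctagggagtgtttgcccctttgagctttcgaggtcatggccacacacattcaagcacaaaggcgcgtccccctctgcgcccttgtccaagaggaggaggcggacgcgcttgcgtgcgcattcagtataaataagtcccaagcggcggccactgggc
Klf4, chr4:55532476-55532725, minus strand: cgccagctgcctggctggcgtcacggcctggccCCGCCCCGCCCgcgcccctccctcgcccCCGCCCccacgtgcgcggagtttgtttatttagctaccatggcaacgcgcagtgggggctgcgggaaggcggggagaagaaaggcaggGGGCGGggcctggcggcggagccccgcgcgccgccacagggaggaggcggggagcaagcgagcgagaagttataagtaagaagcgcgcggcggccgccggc
Gbx2, chr1:89931177-89931426, minus strand: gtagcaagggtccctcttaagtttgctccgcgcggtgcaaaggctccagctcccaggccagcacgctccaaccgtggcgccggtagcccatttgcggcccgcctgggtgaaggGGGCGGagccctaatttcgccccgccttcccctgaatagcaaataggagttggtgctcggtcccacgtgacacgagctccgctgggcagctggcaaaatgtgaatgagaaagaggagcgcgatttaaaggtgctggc
The windows held 0, 4 and 1 GC boxes, in that order, and 32.7% of 32851 promoter windows of this length held at least 1. Windows were at hand for 6 of the 9 genes (7 windows, with a pair for Esrrb), and Klf2 was the other gene with GC boxes, 2 in its window. None of the 7 held the G-rich word GGGGAGGG (9.69% of all windows) or the KLF word GGGTGTGG (3.2%), each searched on both strands. These are matches of letters in a window and were not set against binding data.

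Klf2 and Klf5 complete the Krüppel-like trio that can stand in for each other in ESC self-renewal. Klf2, whose protein is destroyed after phosphorylation by ERK, was at 6.33 (line 3), 6.62 (line 3.2) and 7.31 (line 3.3) among the wild-type, at 7.24 (line 5) and 6.88 (line 3.1) among the heterozygous, and at 7.75 (line 7), 7.23 (line 3.34) and 7.44 (line 3.38) among the null. Wild-type line 3.3 reached into the null range, so the groups overlapped. The mean difference was 0.72 (SE 0.25, 95% interval 0.14 to 1.30, limma adjusted p = 0.199), and it turned to −0.30 with the control-probe difference as a covariate.

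Klf5, which is also needed for trophectoderm in the blastocyst, was at 9.07 (line 3), 9.19 (line 3.2) and 9.38 (line 3.3) among the wild-type, at 9.62 (line 5) and 9.12 (line 3.1) among the heterozygous, and at 9.91 (line 7), 9.59 (line 3.34) and 9.99 (line 3.38) among the null. All null lines were above all wild-type lines by a small step. The difference was 0.62 (SE 0.17, 95% interval 0.23 to 1.00, limma adjusted p = 0.113).

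Esrrb, an orphan nuclear receptor under the control of the Gsk3 and Tcf7l1 axis, was the exception. On its brightest probe set it was at 8.17 (line 3), 8.54 (line 3.2) and 8.24 (line 3.3) among the wild-type, at 8.83 in both heterozygous lines, and at 8.45 (line 7), 8.48 (line 3.34) and 7.92 (line 3.38) among the null. Null line 3.38 was the lowest of all 8 lines and the heterozygous lines were the highest. Null and wild-type means differed by −0.03 (SE 0.17, 95% interval −0.42 to 0.36, limma adjusted p = 0.966). A second probe set read differently, as described below.

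Tbx3 is a T-box factor that feeds Nanog downstream of LIF and PI3 kinase. It was at 4.16 (line 3), 4.17 (line 3.2) and 4.21 (line 3.3) among the wild-type, at 6.00 (line 5) and 4.27 (line 3.1) among the heterozygous, and at 4.64 (line 7), 4.39 (line 3.34) and 4.72 (line 3.38) among the null. The wild-type lines spanned only 0.05, the null lines lay just above them, and heterozygous line 5 stood far above every other line. Tbx3 was called present in every line, but outside line 5 it was dim, at 4.16 to 4.72, where the array medians were 3.87 to 3.92. Small gaps at that level may be compressed. Null minus wild-type was 0.40 (SE 0.36, 95% interval −0.43 to 1.23, limma adjusted p = 0.687), where the shared spread of the fit includes the gap between the heterozygous lines. It turned to −0.16 with the control-probe difference and to −0.05 with Eif2s3y as a covariate.

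Prdm14, a PR-domain protein that restrains FGF receptor signalling and DNA methyltransferases and that also founds the germline, was near the limit of detection. It was at 5.24 (line 3), 5.11 (line 3.2) and 5.58 (line 3.3) among the wild-type, at 6.38 (line 5) and 4.81 (line 3.1) among the heterozygous, and at 6.07 (line 7), 5.63 (line 3.34) and 6.28 (line 3.38) among the null. It was called present in all null lines and heterozygous line 5, and in no wild-type line. Null minus wild-type was 0.68 (SE 0.36, 95% interval −0.15 to 1.51, limma adjusted p = 0.422), which did not pass. The means of 5.99 and 5.31 differ 1.6-fold, where the wild-type value is only a bound. The interval takes in no difference, and wild-type line 3.3 almost reached the lowest null line. With the control-probe difference as a covariate the difference turned to −0.12.

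**Figure D2:**
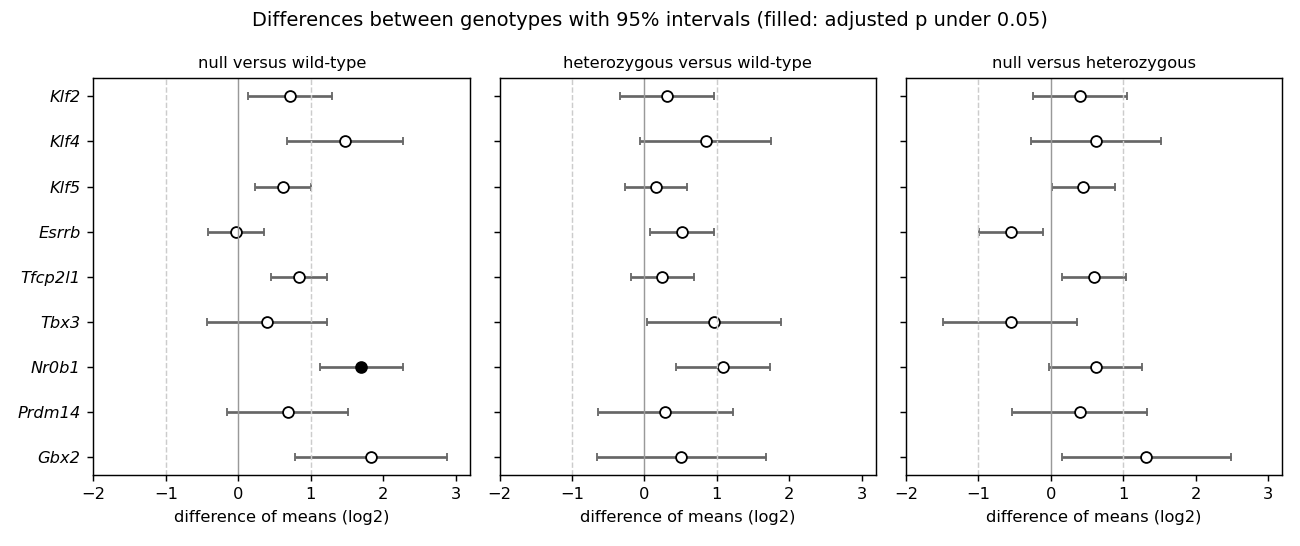
Difference of group means (log2, x axis) with 95% intervals for the 9 genes (y axis) in the 3 comparisons. Filled points have a limma adjusted p under 0.05 and dashed lines mark 2-fold. Nr0b1 in null versus wild-type, at 1.70, is the only filled point, and Esrrb lies at −0.03 in that panel.

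The heterozygous lines addressed whether loss of a single allele is enough to move the factors. All 9 genes averaged higher in heterozygous than in wild-type cells (51.3% of all genes), with a median difference of 0.51 (all genes, 0.01). No gene on the array passed at an adjusted p under 0.05 in limma (0.0% of all genes, with 701 genes and 3 of the 9 at an unadjusted p under 0.05). Nr0b1 was the only one of the 9 past 2-fold (0.126% of all genes), at 1.09 (SE 0.28, 95% interval 0.44 to 1.73, adjusted p = 0.997). In Nr0b1, Tbx3 and Esrrb both heterozygous lines were above all wild-type lines (8.44% of all genes).

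That mean joined unlike lines. Line 5 lay above all wild-type lines in 7 of the 9 genes and at or above the lowest null line in 8, and its median difference from the wild-type mean was 1.07. Line 3.1 did so in 4 genes and 1 gene, with a median of 0.13. Over all genes, 24.6% in line 5 and 29.0% in line 3.1 lay above all wild-type lines, and 71.6% and 72.4% lay at or above the lowest null line. Among the 2027 genes whose null lines were apart from and above the wild-type lines, the shares were 37.5% and 34.9% above all wild-type lines, and 22.2% and 21.9% at or above the lowest null line. Line 5 exceeded line 3.1 in 7 of the 9 genes, and the differences were largest for Tbx3 (6.00 and 4.27), Prdm14 (6.38 and 4.81) and Gbx2 (5.20 and 3.81). Without line 5, Klf5, Prdm14 and Gbx2 were lower in the remaining heterozygous line than in wild-type (−0.09, −0.50 and −0.18), and none of the 9 was past 2-fold. With line 5 alone in the group, 5 were past 2-fold, namely Gbx2, Klf4, Nr0b1, Prdm14 and Tbx3. Such a fit assumes that the lone line varies like the other groups. Line 5 also had the highest feeder-list mean of the 8 lines, 7.16, the highest X-linked median, 0.35, and no present call for Eif2s3y. The difference of Nr0b1 was 1.05 with the X-linked median and 1.04 with Eif2s3y as a covariate, and the part of feeder RNA was not tested.

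**Figure D3:**
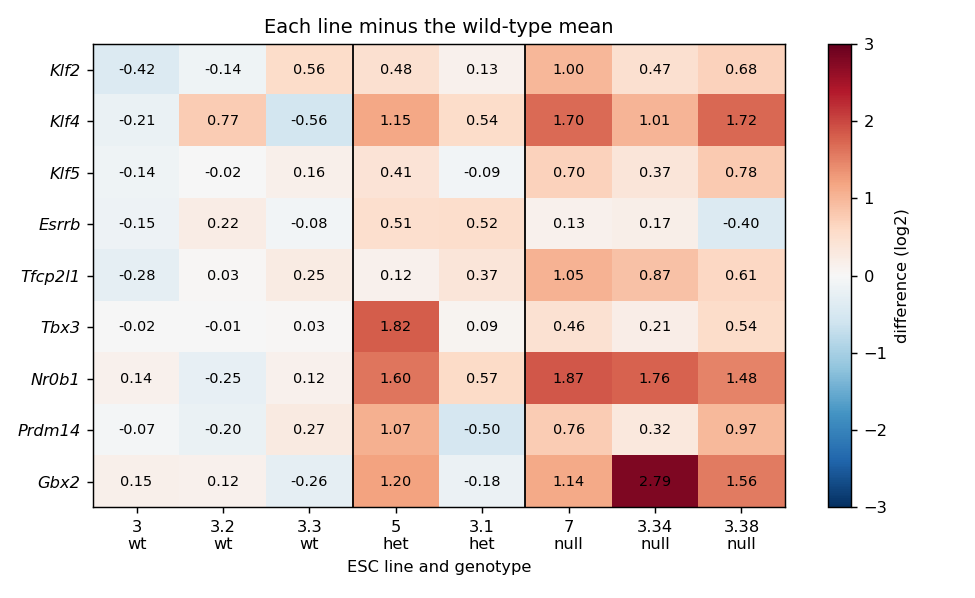
Value of each gene (rows) in each line (columns) minus the mean of the 3 wild-type lines, in log2 units, with red for higher and blue for lower. Heterozygous line 5 lies within the null range for Nr0b1 (1.60) and Gbx2 (1.20) and above every null line for Tbx3 (1.82), whereas line 3.1 stays near 0 for Klf5 and Gbx2.

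Between null and heterozygous lines no gene passed in limma (0.0% of all genes, with 2512 genes and 4 of the 9 at an unadjusted p under 0.05). The median difference of the 9 was 0.45 (all genes, −0.02), and 7 were higher (45.0% of all genes) and 2 lower (55.0%) in null lines. Gbx2 was the only one past 2-fold (1.76% of all genes), at 1.32 (SE 0.51, 95% interval 0.15 to 2.49, adjusted p = 0.29), and it came to 0.84 without null line 3.34 and 0.62 without heterozygous line 3.1, both under 2-fold. Tfcp2l1 was the only one with all null lines above both heterozygous lines (13.3% of all genes), at 0.60 (SE 0.19, adjusted p = 0.2). Esrrb ran the other way on its brightest probe set, with all null lines below both heterozygous lines, as had 2647 of all 18193 genes. The difference of Esrrb was −0.55 (SE 0.19, 95% interval −0.99 to −0.11, adjusted p = 0.243). On its second probe set, described below, it was 0.78 (SE 0.26). This comparison and that with wild-type share the null lines, and their values are not independent.

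The order of the 3 genotypes also differed between the genes. Mean levels ran from wild-type through heterozygous to null for Klf2, Klf4, Klf5, Tfcp2l1, Nr0b1, Prdm14 and Gbx2. In Nr0b1 these means were 6.94 ± 0.22 (SD, n = 3), 8.03 ± 0.72 (SD, n = 2) and 8.65 ± 0.20 (SD, n = 3), and the heterozygous spread reached the null lines. In Tfcp2l1 they were 6.72 ± 0.27, 6.96 ± 0.17 and 7.56 ± 0.22, and the wild-type and heterozygous lines did not differ beyond their spread. Tbx3 and Esrrb had their highest mean in the heterozygous lines.

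Probe sets of the same gene can report different ends or transcripts, and 4 of the 9 factors, Klf2, Nr0b1, Prdm14 and Gbx2, had a single probe set. Of the 20 probe sets, 10 were present on all 8 arrays, 5 on some and 5 on none. Of the 10 present everywhere, 9 averaged higher in the null than in the wild-type group. The share among all probe sets present everywhere was not counted, so this number has no background beside it. Klf4 was read alike by its pair, with a correlation of 0.96 over the 8 arrays and a difference of 0.91 (SE 0.28) on the dimmer set against 1.48 on the brighter, and null lines were apart from wild-type lines on both. Klf5 was not, since its second set differed by only 0.07 (SE 0.27) between null and wild-type, with a correlation of 0.56 to the first.

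Esrrb split further. Its second set was at 7.02 (line 3), 7.16 (line 3.2) and 7.76 (line 3.3) among the wild-type, at 7.24 (line 5) and 7.75 (line 3.1) among the heterozygous, and at 8.40 (line 7), 8.49 (line 3.34) and 7.92 (line 3.38) among the null. Here every null line was above every wild-type and heterozygous line. The difference between null and wild-type was 0.96 (SE 0.24, 95% interval 0.42 to 1.50, limma adjusted p = 0.11 over all probe sets), while that on the brightest set was −0.03, and the correlation of the pair was −0.09. Whether Esrrb stood higher in null lines therefore depended on the probe set. For Tfcp2l1 and Tbx3 the other sets were present on at most 2 arrays and gave no second reading.

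**Figure D4:**
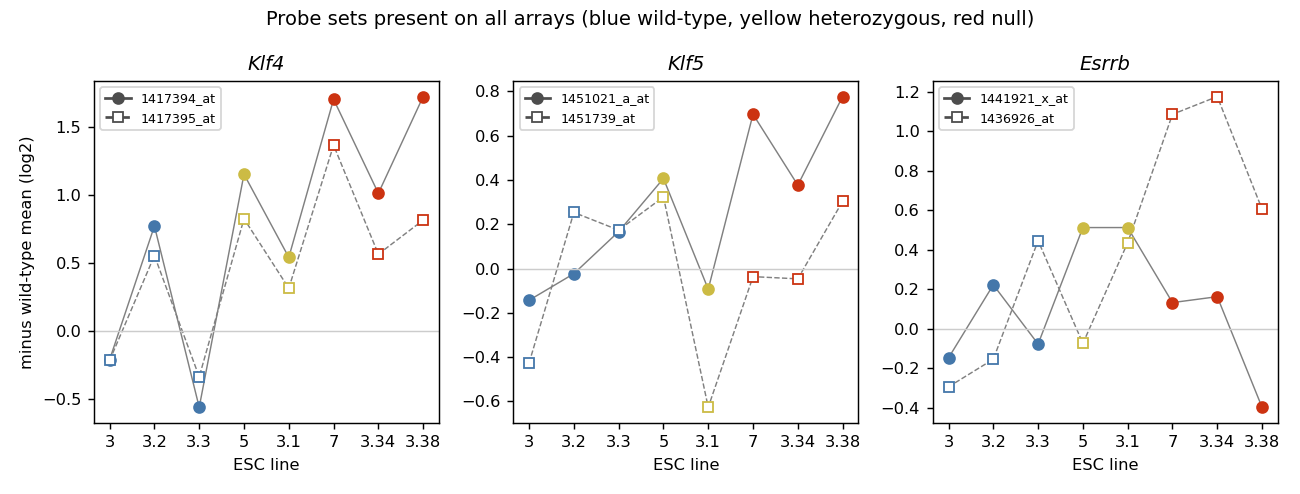
Value minus the wild-type mean (log2, y axis) in each ESC line (x axis) for the pairs of probe sets of Klf4, Klf5 and Esrrb that were present on all 8 arrays; filled circles are the brighter set and open squares the other, coloured by genotype. The Klf4 pair runs in parallel, whereas the Esrrb sets part in the null lines, at −0.40 and 0.60 in line 3.38.

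Correlations between the 9 factors were taken over the lines. Of 36 pairs, 31 had a correlation above 0 over the 8 arrays, with a median of 0.59, and the 5 below 0 all involved Esrrb on its brightest set. Genes that average higher in null lines share that difference between genotypes. Among 1302 detected genes whose null lines were apart and higher, 98.3% of pairs were above 0 (median 0.69), against 51.0% among all 7306 detected genes. With each line taken as its deviation from its genotype mean, 58.3% of the 36 pairs were above 0 (median 0.24), against 63.5% (median 0.19) among the 1302 and 51.4% among the 7306 genes. The closest pairs were Klf2 with Klf5 and Klf5 with Prdm14, at 0.88 each. These are descriptions over arrays that share the genotype groups and the RMA scaling. In Klf5, Tbx3 and Prdm14 the highest line of every genotype was the one with the highest X-linked median (wild-type 3.3, heterozygous 5 and null 3.38), which held for 9.61% of 7024 detected genes off the X chromosome. With the X-linked median as a covariate, the difference between null and wild-type was 0.66 for Klf5, which then passed (limma adjusted p = 0.0321), 0.48 for Tbx3 (adjusted p = 0.468) and 0.77 for Prdm14 (adjusted p = 0.101). Klf5 passed under only 1 of 21 alternatives, this one. Its difference was 0.39 with Eif2s3y and 0.17 with the control-probe difference as a covariate, and 0.20 as the mean of its probe sets.

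The genes whose pattern over the 8 arrays was nearest to each factor, among 7305 compared, were mostly outside the network. For Klf4 they were Kansl2 (correlation 0.970), the naive-state nuclear receptor gene Nr5a2 (0.944) and Grwd1 (0.942). For Tfcp2l1 they were the surface tetraspanin gene Cd9 (0.983), the histone gene H2ax (0.977) and Rae1 (0.975). For Nr0b1 they were the fatty acid elongase gene Elovl6 (0.963), 2410002F23Rik (0.962) and Sec23b (0.954), and for Gbx2 Mettl8 (0.975), Ric8b (0.969) and Plcb4 (0.950). Klf2 was nearest to Cd3eap (0.976), Raly (0.952) and Ankrd13a (0.929), and Klf5 to Timm23 (0.991), D1Pas1 (0.977) and Atp5k (0.970). Esrrb was nearest to Med18 (0.937), Ngdn (0.935) and Polr1d (0.921). Tbx3 was nearest to Mettl14 (0.983), Irak3 (0.976) and Cyp2c29 (0.975), and Prdm14 to Bcat1 (0.986), Fam25c (0.985) and Ddx18 (0.974). A high correlation picked from this many genes over 8 arrays is a description only, and no factor had another of the 9 among its nearest 3.

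The signals that feed the network were read from lists of their genes. Of 8 genes of the LIF and Stat3 branch none passed in null against wild-type, and the median difference was −0.14. Of these, 2 had a higher mean (46.8% of all genes) and 6 a lower one (53.2%). Stat3 itself differed by −0.07 (limma adjusted p = 0.877), and the receptor subunit gene Il6st by −0.57 (adjusted p = 0.275). Socs3 and Pim1, targets of Stat3 like Klf4, differed by 0.21 and −0.63 (adjusted p = 0.769 and 0.32). Of 7 measured Wnt and TCF genes none passed either, with a median of −0.37. Tcf7l1, the repressor of Esrrb and other naive genes, had a present call in each of the wild-type and heterozygous arrays but in no null array. Its means of 7.68 in null and 8.61 in wild-type lines differed by −0.93 (SE 0.21, limma adjusted p = 0.0718), which did not pass. These means differ 1.91-fold, where the null value is only a bound and the SE leaves room for a smaller fall.

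On the opposing side, 9 measured FGF and ERK genes had a median difference of −0.02 in null against wild-type lines. Etv4, an ETS factor induced by ERK, was called present on 1 array only, a null line. Its means in null and wild-type cells were 6.55 and 5.41, a difference of 1.13 (limma adjusted p = 0.037). Neither mean rests mainly on present calls, so the fold between them has no firm bound. Dusp6, the ERK phosphatase, differed by −1.09 (adjusted p = 0.462). Besides Zfp281, whose loss the design fixed, 6 regulators of the exit from the naive state were measured, and 1 fell (0.44% of all genes), Fnip1 (−1.48, adjusted p = 0.0444), a partner of folliculin in nutrient signalling. Of 13 formative and primed epiblast genes 7 had a higher mean in null lines (46.8% of all genes) and 6 a lower one, with a median of 0.03. Only 1 fell (0.44% of all genes), Pou3f1 (Oct6), by 1.37 (adjusted p = 0.0473). Dnmt3b differed by −1.13 (adjusted p = 0.33).

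The other naive and core genes stood nearer to the 9. Of 18, 14 had a higher mean in null lines (46.8% of all genes) with a median of 0.54. Of the 18, 2 rose (0.693% of all genes), Dppa5a (1.23, limma adjusted p = 0.0301) and the imprint-protecting zinc finger gene Zfp57 (1.49, adjusted p = 0.0388). Nr5a2 (1.42, adjusted p = 0.0672) and Pou5f1 (1.29, adjusted p = 0.0715) were also past 2-fold without passing, which made 4 of the 18 past 2-fold (1.37% of all genes). Nanog differed by 0.50 (adjusted p = 0.296), Sox2 by 0.30 and Zfp42 (Rex1) by 0.69 (adjusted p = 0.756). Relatives of the 9 by gene family were read too. Of 13 other Krüppel-like genes none passed, with a median of 0.08 and Klf7 at −1.37 (adjusted p = 0.0666), and of 21 further relatives none passed and none was past 2-fold.

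Markers of other cell types were read in the same lines. Of 12 endoderm markers all averaged lower in null than wild-type cells (53.2% of all genes did), with a median difference of −0.43, and 1 fell (0.44% of all genes), the laminin gene Lamb1 (−1.25, limma adjusted p = 0.0384). The mean level of that list was 5.47 to 6.53 in wild-type, 5.10 and 5.79 in heterozygous and 5.24 to 5.62 in null lines. Of 19 feeder markers 16 averaged lower in the null group (53.2% of all genes did), none passed, and the median was −0.45. Of 9 trophectoderm markers 6 had a lower mean (53.2% of all genes) and none passed. The mean level of that list ran from 6.07 to 6.37 in wild-type and 5.40 to 6.38 in null lines. More than 2-fold lower in null lines without passing were Krt8 (trophectoderm, −1.76), Col4a1 (endoderm, −1.21) and Tagln (feeder, −1.01). Their limma adjusted p was 0.259, 0.366 and 0.39, and 200 of all 18193 genes were more than 2-fold lower. The mean of the 10 ESC markers was 8.92 to 9.43 in wild-type, 9.21 and 9.39 in heterozygous and 9.69 to 9.89 in null lines. Wild-type line 3.3 was inside the null range of the feeder list, wild-type line 3.2 inside that of the endoderm list, and the trophectoderm ranges overlapped. The part of cell make-up in the levels of the 9 factors was not tested.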

How the data were processed

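RNA was extracted with Trizol from 8 ESC lines and hybridised to 1 array each. The log2 values deposited by the authors came from RMA. Per array, the authors also deposited linear signal intensities with a call and its p-value for detection, as the Affymetrix software makes them. Both RMA and limma appear in the methods and the submitters' processing notes. No version, and no scaling of the signal, is given in the sources used here. Each log2 column was compared with the signal of all 8 arrays, and 8 of 8 matched their own array best.

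Of 45101 probe sets, 64 controls were left out. The platform annotation, which can be old, gives 1 gene for 34945, several for 932 and none listed for 9160. Of the first, 34741 matched the RefSeq gene table (GRCm38.p6) by Entrez identifier, and no symbol changed. Each of 18193 genes was its probe set with the highest mean.

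Genotypes were compared with limma 3.58.1 in R 4.3.3 (lmFit, eBayes) over the 8 arrays, 1 mean per genotype, with p-values adjusted by Benjamini-Hochberg across the 18193 genes. Calls were an adjusted p under 0.05, a log2 difference past 1 (the threshold of the methods), and lines that did not overlap. No dates, scans or batches are known. The litter pairs are those the study names. In these 4 lines the deviations from the group means correlated at 0.05 within a litter (all genes). The precision is limited by the number of arrays. The 9 genes, the gene lists and the tests were chosen with earlier results of these data known. Named are the 9 genes, some list members past a threshold, a few core genes, and the 3 nearest patterns for each of the 9. Il6st, Socs3 and Pim1 were named after their values were seen. Listed genes with no probe set of their own are not analysed here. A gene not called present in any line of a group has only a bound there, set by its own value or, where that is lower, by the dimmest present probe set of the array. Promoter windows came from RefSeq. Tables were made with pandas 2.3.3 and numpy 2.4.6 in Python 3.11.15, and figures with matplotlib 3.10.9.

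Alternatives were the mean of a gene's probe sets, all probe sets, detected genes only, quantile normalization, signal values with a floor of 16, the control-probe difference as a covariate, only the genotypes compared, a trend and robust variance, and each line left out. Chosen after seeing the data were the fits without wild-type line 3.2 and heterozygous line 3.1, which had the lowest shares called present, those with the X-linked median or Eif2s3y as a covariate, and those of the 4 lines of 2 litters with and without the litter as a block.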

Additional observations from a re-analysis of the deposited data

How the results depend on the processing

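The line numbers in the labels pair no samples, and a paired fit was made on the 4 wild-type and null lines of 2 litters, where 2 of the 9 genes passed with the litter as a replicate block (Klf4, Nr0b1) and 3 without it (Gbx2, Klf4, Nr0b1). The block changed no other call for the 9. Against the 1 gene of the 9 that passed between null and wild-type (Nr0b1), 4 passed among detected genes only (Gbx2, Klf4, Nr0b1, Tfcp2l1), where fewer genes were tested, and 2 with the X-linked median as a covariate (Klf5, Nr0b1). The count was 0 with the control-probe difference, with Eif2s3y, and without wild-type line 3.2 and heterozygous line 3.1, and 0 to 1 with each line left out. Null and wild-type lines do not overlap in the control-probe difference, so the fit with that measure cannot tell it apart from genotype. Nr0b1 passed under 14 of 21 alternatives, with a difference of 1.20 to 1.82 over all 21. The number past 2-fold between heterozygous and wild-type lines (1) was 2 with signal values, 4 without wild-type line 3.2 and heterozygous line 3.1, and 0 to 5 with each line left out. Between null and heterozygous lines it was also 1, and became 2 with the control-probe difference and 0 to 3 with each line left out. The sign of some differences turned. For null minus wild-type, the control-probe difference gave −0.30 for Klf2, −0.16 for Tbx3 and −0.12 for Prdm14. The same fit gave 2.88 for Gbx2, 1.31 for Klf4, 1.20 for Nr0b1, 0.41 for Tfcp2l1, 0.17 for Klf5 and −0.14 for Esrrb. Eif2s3y gave −0.05 for Tbx3 in this comparison. Esrrb there was 0.38 as the mean of its probe sets, 0.08 without wild-type line 3.2 and heterozygous line 3.1, 0.01 with Eif2s3y, and −0.13 to 0.15 with each line left out. For heterozygous minus wild-type, leaving out each line gave −0.09 to 0.41 for Klf5, −0.50 to 1.07 for Prdm14 and −0.18 to 1.20 for Gbx2. For null minus heterozygous, the control-probe difference gave −0.63 for Klf2, −0.0049 for Klf5 and −0.42 for Prdm14, and the mean of probe sets gave 0.01 for Esrrb. Prdm14 there was −0.39 without wild-type line 3.2 and heterozygous line 3.1, −0.07 with Eif2s3y and −0.39 to 1.18 with each line left out, and Tbx3 was −1.42 to 0.31 with each line left out. The causes of the other shifts were not tested. Each genotype has only 2 or 3 arrays, and genes near the detection limit (Prdm14, Gbx2) have only bounds in lines without a present call.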
